A study of Mus musculus with 18 samples.

Results

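The comparison described here set 3 arrays labelled Plin1 knockout against 3 arrays labelled wild type, all of mouse testis taken at day 60, the age that the labels call the mature phase. These 6 arrays were chosen by their titles out of 18, which also cover days 21 and 40, and every gene on the array was read. RNA was labelled with the dye Cy3 and hybridised to Agilent one-colour mouse arrays. The controls carry the wild-type label and no other stated allele or agent. The sources used here do not state the knockout allele, the part of Plin1 that it removes, the mouse strain or whether each array holds RNA of a separate animal. The limma p-values therefore describe only scatter between arrays, which may be technical. Unless stated otherwise, that scatter was pooled within groups over all 18 arrays, days 21 and 40 included. Testis was read as whole tissue, with germ cells, Sertoli cells, Leydig cells, vessels and any attached fat in 1 extract. The tissue label was borne out by germ cell genes: all 28 measured round spermatid genes and all 30 measured elongating spermatid genes were well above background on all 6 arrays.

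Perilipins are proteins that coat lipid droplets. Perilipin 1, the product of Plin1, is the main droplet coat of fat cells, where it holds the lipase activator Abhd5 away from the triglyceride lipase Pnpla2 until protein kinase A phosphorylates it and lets lipolysis proceed. In the testis, Leydig cells store cholesterol esters in droplets as material for testosterone, and Sertoli cells form droplets when they digest the residual bodies of shed spermatids.

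Across the 35643 probes tested at day 60, exactly 1 passed an adjusted p below 0.05 in limma, which is 0.00281% of them, and that probe was Plin1 (1 of 17078 genes, 0.00586%). Its signal was higher, not lower, in the arrays labelled knockout. No gene of the 30 gene lists examined other than Plin1 passed. The smallest adjusted p of any other probe was 0.807. The groups below are therefore described by their values, and "labelled knockout" and "labelled wild type" refer to the titles throughout.

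Levels are given as log2 signal relative to its own array's 75th percentile, so that 0 stands for a spot as bright as that percentile. The percentile itself lay between 2245 and 2504 intensity units under the wild-type label and between 2314 and 2421 under the knockout label. A share of 82 ± 2.60% of spots (SD, n = 3) was well above background in the former and 83.3 ± 0.386% (SD, n = 3) in the latter. Array signals correlated across probes at r = 0.992 to 0.995 between arrays of 1 label and at 0.990 to 0.996 between labels. Knockout-labelled replicate 2 stood apart: on the first principal component of the 6 arrays, which held 36.7% of the variance, it lay at 60.6 and the other arrays between -28.1 and 3.13. It was also at least 2-fold above every other day 60 array for 60 genes, against 6 to 26 genes for each of the other 5 arrays. The wild-type-labelled arrays and knockout-labelled replicate 1 were on 1 slide, and knockout-labelled replicates 2 and 3 were on another, so values from the first slide alone (knockout-labelled replicate 1 against the 3 wild-type-labelled arrays) are given beside several results.

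Plin1 lies on the minus strand of mouse chromosome 7. The bases just upstream of its annotated start are shown because it is the 1 gene that passed the test. RefSeq's GRCm38.p6 gives them at chr7:79732905-79733026, read here 5′ to 3′ on the gene's strand.
Plin1 upstream: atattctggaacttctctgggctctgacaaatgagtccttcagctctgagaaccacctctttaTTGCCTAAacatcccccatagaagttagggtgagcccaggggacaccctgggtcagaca
The capitals mark the single match to TTGCNNAA, a pattern of the kind bound by C/EBP factors, which drive fat cell genes. Both strands were searched, and 5.08% of the 32851 upstream windows of this length hold a match. Each window is the outermost 122 bases of a gene's upstream region, so at other genes it need not adjoin the start. The nuclear receptor pattern AGGTCA had 0 matches in this window and occurs in 7.05% of all such windows. The array's annotation is of an older build, mm9, and the files give no place for the probe within the gene, so these bases give context and were not measured. For the same reason, whether the probe lies inside the deleted part of Plin1 is unknown, and its signal may not check the knockout label at all.

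The Plin1 probe read -3.06, -2.16 and -3.04 under the wild-type label. It read 0.17, -0.08 and -0.08 under the knockout label. The 2 sets did not overlap, and the lowest knockout-labelled array was above the highest wild-type-labelled array by more than the whole range of either set. Means were -2.75 ± 0.52 and 0.0031 ± 0.14 (SD, n = 3 each), a difference of 2.75 on the log2 scale (SE 0.24, 95% interval 2.24 to 3.27) or 6.75-fold, with a limma adjusted p of 0.000623. An exact two-sided permutation test of these 6 values alone gave p = 0.1, the smallest that 3 against 3 allows. Within the slide that holds both labels, which has 1 knockout-labelled array, the difference was 2.92. A fit with slide as a fixed block draws the difference from that slide alone, so its 2.92 is the same estimate, with a limma adjusted p of 0.0665. Without knockout-labelled replicate 2 the difference was 2.80 with a limma adjusted p of 0.00627, as large as with that array. When only the 6 day 60 arrays entered the fit, the same 2.75 had a limma adjusted p of 0.245 and no probe passed. Plin1 ranked 2 by p in that fit, and the smallest limma adjusted p of another probe was 0.103. After normexp background correction the difference was 1.67 and its adjusted p was 0.952.

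**Figure D1:**
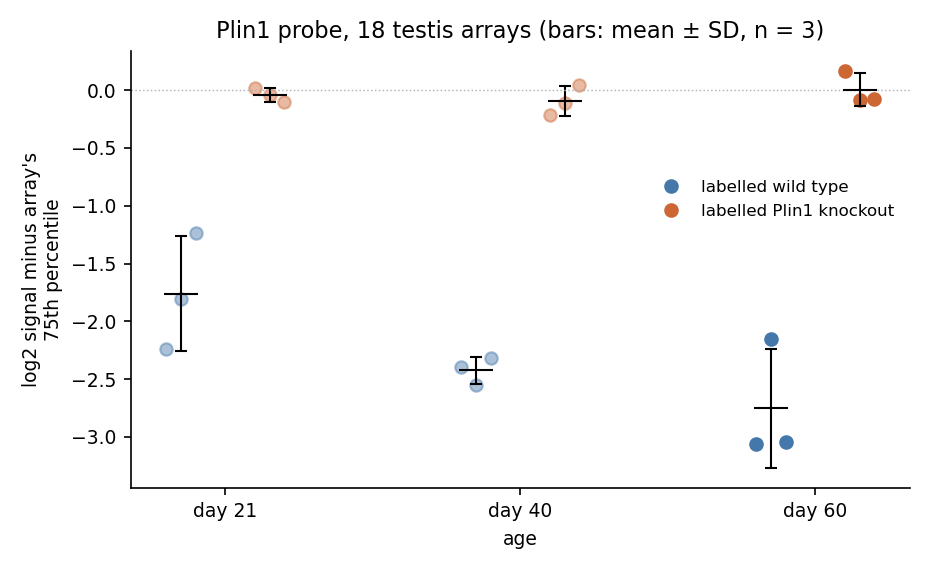
Plin1 probe level (log2 signal minus the array's 75th percentile) in each of the 18 arrays by age and label, with day 60 in full colour and bars for mean ± SD (n = 3). The knockout-labelled arrays sit near 0 at every age, and the day 60 wild-type-labelled arrays sit between -3.06 and -2.16.

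The same direction was present at the other ages, in arrays that day 60 does not share. The difference was 1.72 at day 21, where 1.37% of probes passed, and 2.33 at day 40, where 0.00281% did, with limma adjusted p-values of 0.00278 and 0.00510. Knockout-labelled means were -0.04 at day 21 and -0.09 at day 40, and wild-type-labelled means were -1.76 and -2.42. The difference at day 60 exceeded that at day 21 by 1.04 (SE 0.34, limma adjusted p = 0.364) and that at day 40 by 0.43 (SE 0.34, limma adjusted p = 0.779), neither of which passed. Over all 35643 probes, 5 passed the limma test that the day 60 difference departs from the day 21 difference, and 0 passed it against day 40, where 3180 had an unadjusted p below 0.05. The 3 of the 5 that carry a symbol were 1700008P02Rik, 4930412O13Rik and Ttc7, which were outside the naming rule and chosen with their values seen. Their day 60 differences were 0.15, 0.19 and 0.09, against 2.73, 2.57 and 2.06 at day 21.

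None of the 6 measured genes that flank Plin1 on chromosome 7 passed. On one side, Rhcg, an ammonium transporter, Ticrr, a regulator of replication initiation, and Kif7, a ciliary kinesin of Hedgehog signalling, differed by -0.25, 0.19 and 0.03. Rhcg had no usable spot on knockout-labelled replicate 1, so its value rests on 2 arrays of that label. On the other side, the peroxisome division gene Pex11a differed by -0.27, Wdr93 by -0.09 and the mesoderm factor Mesp1 by -0.14. Pex11a had the smallest p of the 6, with an adjusted p of 0.807 in limma, and read 2.09 to 2.25 in the wild-type-labelled arrays against 1.76 to 1.96 in the knockout-labelled arrays.

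Of the perilipin and CIDE family, 7 of 8 listed members were measured and 1, Plin1, passed. The family's median difference was 0.46, with 6 members above 0 and 1 below, against a median of 0.01 and 52.4% above 0 over all 17078 genes. Without knockout-labelled replicate 2 the family median was 0.01, and within the 1 slide it was 0.17. Plin2, the perilipin of most cells that are not fat cells, read 1.99, 1.59 and 1.61 under the wild-type label and 1.63, 1.46 and 1.48 under the knockout label. Its groups overlapped, with a difference of -0.21 (SE 0.15, 95% interval -0.53 to 0.11). Plin3, a widely expressed droplet coat, differed by 0.11, and Plin5, the perilipin of oxidative tissues, by 0.11 (95% interval -0.26 to 0.49), and both overlapped.

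Plin4 and Cidec were high in 1 of the 3 knockout-labelled arrays. Plin4, a fat cell perilipin, read 0.28 in replicate 2 and between -2.91 and -2.51 in the other 5 arrays. Cidec, which joins small droplets into large ones in white fat cells, read 1.72 in replicate 2 and between -4.60 and -3.08 in the other 5. Their differences of 0.97 (SE 0.83) and 1.86 (SE 1.59) both rest on that array. Cidea, a related droplet protein, read 1.01 to 1.04 under the wild-type label and 1.24, 1.88 and 1.36 under the knockout label. Its groups did not overlap, the difference was 0.46, and its adjusted p in limma was 0.807. Over all genes, 11.2% lay without overlap on that side and 9.61% on the other.

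None of the 17 measured lipases and lipolysis regulators passed. Their median difference was 0.08 with 13 of 17 above 0, and without knockout-labelled replicate 2 it was 0.01 with 9 of 17 above 0, as many as within the 1 slide (median 0.05). Pnpla2, the first lipase of triglyceride breakdown, read 4.53 to 4.73 under the wild-type label and 4.70 to 4.77 under the knockout label. Its difference was 0.07 with a 95% interval of -0.13 to 0.27. Lipe, the hormone-sensitive lipase that also frees cholesterol in Leydig cells, differed by 0.06 (95% interval -0.24 to 0.36), and Mgll, the monoglyceride lipase, by 0.23 (-0.08 to 0.54).

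Abhd5, the lipase activator that perilipin 1 binds, read 1.79, 2.01 and 2.23 under the wild-type label and 2.24, 2.5 and 2.42 under the knockout label. The highest wild-type-labelled value and the lowest knockout-labelled value nearly touched, with a difference of 0.38 (SE 0.13, limma adjusted p = 0.807). Prkaca, the catalytic subunit of protein kinase A, read 3.45 to 3.59 against 3.11 to 3.40, a difference of -0.27. Pde3b, a phosphodiesterase that lowers cyclic AMP, read 0.23 to 0.40 against -0.04 to 0.22, a difference of -0.23. These 2 of the 17 genes lay without overlap on the lower side, near the share of 9.61% over all genes, and neither passed. On the higher side 2 of the 17 lay without overlap, near the 11.2% of all genes. The lipase inhibitors G0s2 and Hilpda differed by -0.05 and -0.16. The largest values of the list again came from 1 array: Lpl, which cuts triglyceride from lipoproteins, read 2.17 in knockout-labelled replicate 2 and -4.44 to -2.58 elsewhere. Pnpla3 read -4.01 there and -6.07 to -5.71 elsewhere, and the liver and fat carboxylesterase Ces1f was well above background on that array alone.

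**Figure D2:**
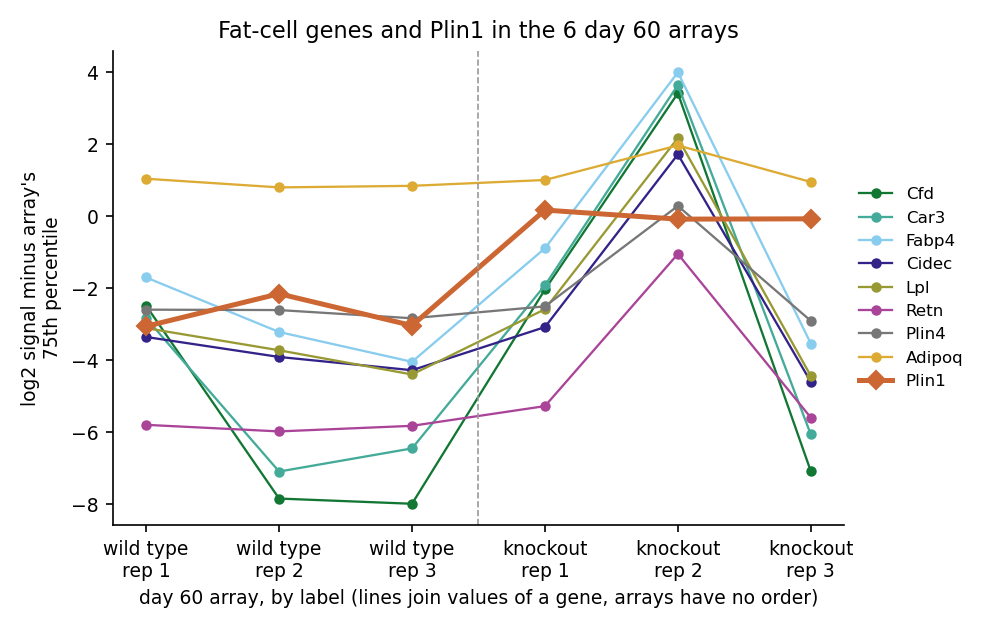
Levels of 8 fat cell genes and Plin1 (log2 signal minus the array's 75th percentile) in each of the 6 day 60 arrays by label. Fat cell genes peak in knockout-labelled replicate 2, where Fabp4 reads 3.99, while Plin1 is near 0 in all 3 knockout-labelled arrays.

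Fat cell genes varied more between single arrays than between labels. Cfd, the fat-derived complement factor adipsin, read -2.49, -7.84 and -7.99 under the wild-type label and -2.04, 3.41 and -7.08 under the knockout label. Car3, a carbonic anhydrase abundant in fat, read -2.84, -7.09 and -6.45, and then -1.92, 3.64 and -6.06. Fabp4, the fatty acid carrier of fat cells, read -1.70, -3.22 and -4.05, and then -0.89, 3.99 and -3.54. Cfd was well above background on 1 of the 3 wild-type-labelled arrays and on all 3 knockout-labelled arrays. In all 3 genes knockout-labelled replicate 2 was far above the rest, replicate 1 of each label was intermediate, and the remaining 3 arrays of both labels were low.

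Of 21 measured adipocyte markers, 18 had differences above 0, with a median of 0.41 and a mean of 1.15, and none passed. The highest of the 6 arrays was knockout-labelled replicate 2 for 19 of the 21, against 25.7% of all genes. For 10 of them (Car3, Cd36, Cfd, Cidec, Cyp2e1, Fabp4, Lpl, Plin4, Retn and Scd1) that array was at least 2-fold above each of the others. The mean level of the 21 genes was -2.11, -2.90 and -3.01 under the wild-type label and -1.91, 0.32 and -2.98 under the knockout label. Without replicate 2 the median difference was 0.01, with 12 of 21 above 0. Within the 1 slide, knockout-labelled replicate 1 against the wild-type-labelled arrays gave a median of 0.16, with 16 of 21 above 0. The fat hormone leptin, Lep, was not well above background on any day 60 array. Adiponectin, Adipoq, read 0.80 to 1.04 under the wild-type label and 1.0, 1.96 and 0.95 under the knockout label. In whole tissue, more cells of a type and more RNA per cell cannot be told apart.

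Plin1, itself a fat cell gene, did not follow this order. Its 3 knockout-labelled values lay between -0.08 and 0.17, while those of Cfd in the same arrays ran from -7.08 to 3.41. Its highest wild-type-labelled value, -2.16, was in replicate 2, where Cfd read -7.84. Pparg, the factor that directs fat cell formation, had the smallest p of the adipocyte markers. It read -1.23 to -1.07 against -1.01, -0.51 and -0.96, without overlap, with a difference of 0.34 (SE 0.13, limma adjusted p = 0.807).

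Genes of testosterone synthesis had a median difference of 0.05 over 19 measured members, which turned to below 0 under quantile normalization and without knockout-labelled replicate 2 (-0.05) and was 0.09 within the 1 slide, and none passed. Star, which moves cholesterol into mitochondria, read 0.18, 0.75 and 0.45 under the wild-type label and 0.63, 0.39 and 0.03 under the knockout label. The groups overlapped fully, with a difference of -0.11 (95% interval -0.76 to 0.54). Cyp11a1, which cuts the cholesterol side chain, differed by -0.20 (-0.79 to 0.39), and Cyp17a1, which makes androgens from progestins, by -0.31 (-0.98 to 0.37). For both of these enzymes, and for the luteinising hormone receptor Lhcgr, the highest of the 6 arrays was wild-type-labelled replicate 2. Hsd17b3, which makes testosterone from androstenedione, differed by -0.32 with overlap (-1.23 to 0.60).

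Of the 19 genes, 2 lay without overlap on the higher side, near the 11.2% of all genes. On the lower side 0 did, against 9.61%. The 2 were Srd5a2 and Nr0b1, which encodes the repressor DAX1. Nr0b1 read 1.94 to 2.05 under the wild-type label and 2.19, 2.67 and 2.29 under the knockout label. Its difference was 0.41 (SE 0.15, limma adjusted p = 0.807). Srd5a2, a steroid reductase, differed by 0.55 with an SE of 0.51. Of 17 measured Leydig cell markers, 14 lay below 0, with a median of -0.11. None was without overlap, against 11.2% of all genes on the higher side and 9.61% on the lower side. Without knockout-labelled replicate 2 the median was -0.23, and 2 of the 17 lay without overlap on the lower side, near the 11.4% of all genes. Within the 1 slide the median was -0.03 with 9 of 17 below 0. The list mean was lowest in knockout-labelled replicate 3, at 0.77, and ran from 0.97 to 1.22 in the other 5 arrays.

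Other lipid pathways lay close to the median of all genes. Triglyceride synthesis and droplet formation had a median of -0.02 over 20 genes, and Mogat1, a monoacylglycerol acyltransferase, had its largest log2 difference, 0.50. Acsl3, which seeds new droplets, read 0.41 to 0.45 against 0.53 to 0.67, a difference of 0.18. Fatty acid synthesis had a median of -0.06 over 16 genes (0.02 within the 1 slide), and fatty acid oxidation with PPAR targets 0.03 over 21.

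The 25 cholesterol synthesis and uptake genes had a median of -0.05, and their members lay on both sides. Srebf2, the master factor of cholesterol synthesis, differed by -0.49 and read -2.51 to -1.74 against -2.89 to -2.60. Sqle, the squalene epoxidase, differed by -0.30 and read 3.08 to 3.31 against 2.77 to 2.98. Cyp51, the lanosterol demethylase, differed by 0.48 and read 1.31 to 1.49 against 1.66 to 2.27. These 3 were without overlap, and for each the adjusted p in limma was 0.807. In this list 3 of the 25 genes were without overlap on the higher side and 4 on the lower side, against 11.2% and 9.61% of all genes, so the higher-side count lay near that share.

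**Figure D3:**
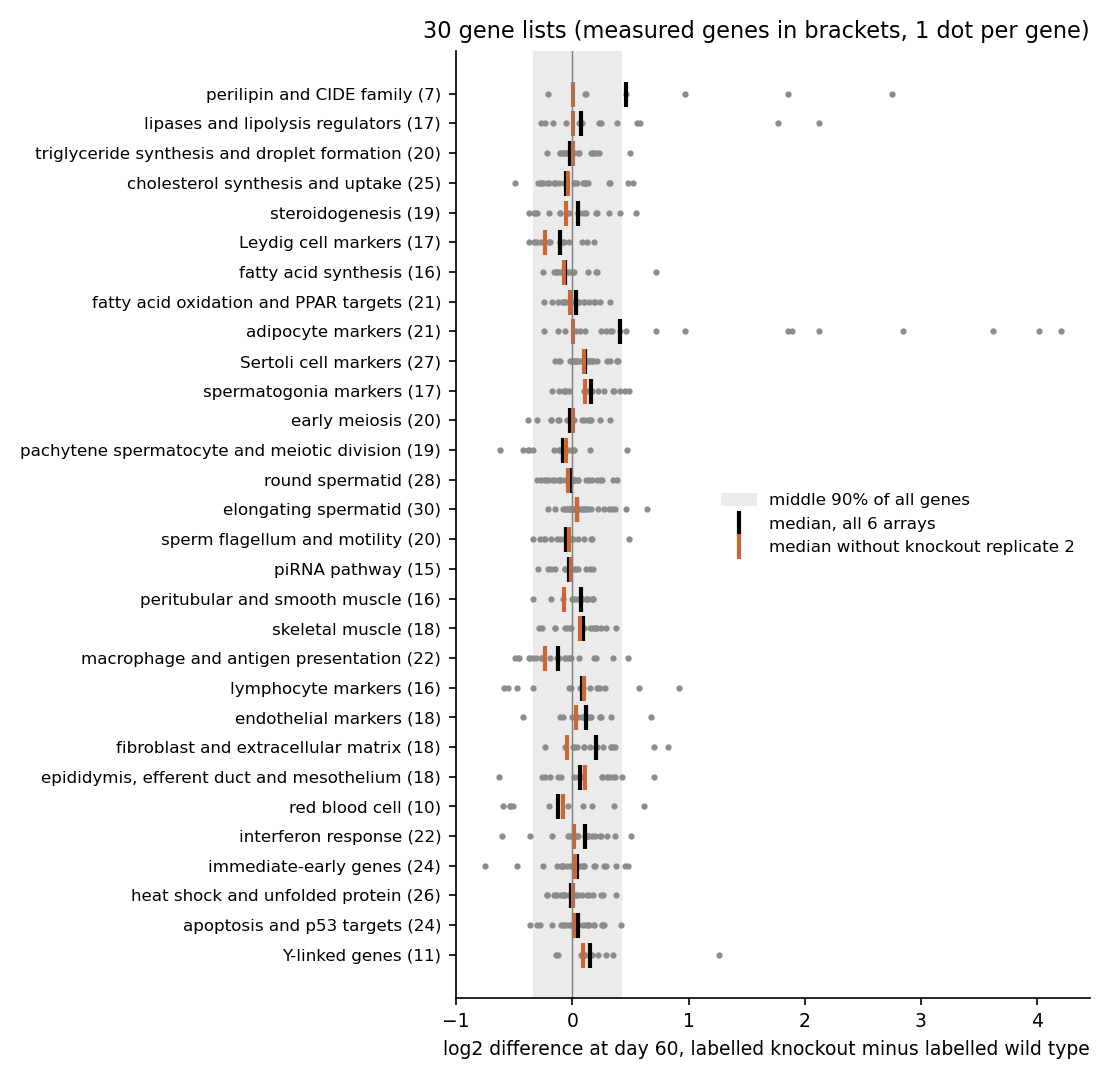
Log2 difference at day 60 (labelled knockout minus labelled wild type) for each gene of 30 lists, with the list median over all 6 arrays in black and without knockout-labelled replicate 2 in orange. The shaded band, -0.33 to 0.42, holds the middle 90% of all genes. The adipocyte median moves from 0.41 to 0.01 when that array is left out.

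Germ cell programmes showed near-equal levels in both labels. Medians were 0.16 for spermatogonia (17 genes), -0.02 for early meiosis (20), -0.08 for pachytene spermatocytes and the meiotic divisions (19), -0.01 for round spermatids (28) and 0.04 for elongating spermatids (30). Sperm flagellum genes had a median of -0.06 over 20 genes, and the piRNA pathway, which silences transposons, -0.03 over 15. Within the 1 slide the spermatogonia median was 0.05, and those of early meiosis and of elongating spermatids changed sign, to 0.03 and -0.03. No member of these lists passed.

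In the pachytene and division list, 15 of 19 genes lay below 0 and 7 lay without overlap on the lower side, against 9.61% of all genes. Ccnb1, the cyclin that drives entry into division, read 3.32, 3.30 and 3.04 under the wild-type label and 2.71, 2.22 and 2.87 under the knockout label. Its difference was -0.62 (SE 0.20, limma adjusted p = 0.807). Ccna1, the cyclin needed to finish male meiosis, differed by -0.43, Tbpl1, a germ cell relative of the TATA-binding protein, by -0.38 and Mybl1, a regulator of pachytene genes, by -0.34, and all 3 were without overlap. Without knockout-labelled replicate 2, 8 of the 19 lay without overlap on the lower side, against 11.4% of all genes, and the list median was -0.05. Others of the list were close to equal: Ldhc, the sperm lactate dehydrogenase, differed by -0.08 and Pgk2, the sperm phosphoglycerate kinase, by -0.04. Among earlier cells, Uchl1, a marker of spermatogonia, differed by 0.35, the meiotic recombination gene Meiob by -0.31, and Stra8, which starts meiosis, by 0.49 with overlap.

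Sertoli cell markers lay above 0 in 23 of 27 genes, with a median of 0.11, and with medians of 0.10 without knockout-labelled replicate 2 and 0.03 within the 1 slide. Shbg, which encodes androgen-binding protein, differed by 0.32, Gata1 by 0.38 and the hormone Amh by 0.21, and none of these passed.

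Macrophage and antigen presentation genes lay below 0 in 17 of 22, with a median of -0.12. Adgre1, which encodes the macrophage protein F4/80, read -0.97, -0.94 and -1.0 under the wild-type label and -1.50, -1.42 and -1.48 under the knockout label. The spread within each label was under 0.1 and the difference was -0.50 (SE 0.10, limma adjusted p = 0.807), the smallest p of any gene on the lower side. Its second, dimmer probe differed by -0.30 (SE 0.39). Laptm5, a lysosomal protein of blood cells, read -4.00 to -3.41 against -4.31 to -4.09, and Ptprc, the leukocyte antigen CD45, differed by -0.34 with overlap.

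Knockout-labelled replicate 2 differed from the other arrays of its label in this list too. With all 6 arrays, 2 of the 22 macrophage genes lay without overlap on the lower side, near the share of 9.61% over all genes. Without knockout-labelled replicate 2, 10 of the 22 did, against 11.4% of all genes, and the median was -0.24. Within the 1 slide the median was -0.25, with 20 of 22 below 0. The list mean was -1.62, -1.52 and -1.94 under the wild-type label and -1.93, -1.58 and -1.93 under the knockout label, so that 1 wild-type-labelled array was as low as the low knockout-labelled ones. After normexp background correction the list median was on the other side of 0.

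Stromal lists were highest in the same array as the fat genes. Knockout-labelled replicate 2 was the highest of the 6 arrays for 14 of 18 fibroblast and extracellular matrix genes, for 13 of 18 endothelial genes and for 10 of 16 peritubular and smooth muscle genes. The fibroblast list had a median of 0.20 with 16 of 18 above 0, and of -0.04 with 7 of 18 above 0 when that array was left out. Within the 1 slide, which does not hold that array, the fibroblast median was 0.21 with 15 of 18 above 0. The endothelial list had a median of 0.11, of 0.03 without replicate 2 and of 0.09 within the 1 slide. The peritubular list had medians of 0.08, -0.07 and -0.05 in the same order. Tie1, a receptor of vessel lining cells, read -4.71 to -4.57 under the wild-type label and -4.68, -3.81 and -3.48 under the knockout label, and Sox17, an endothelial and germ cell factor, read 0.99 to 1.09 against 0.52 to 0.78. Whether the amount of fat or connective tissue in an extract bears on these values was not tested.

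The remaining lists had medians between -0.12 and 0.15. These were skeletal muscle (0.09), lymphocytes (0.08), epididymis and neighbouring ducts (0.06), red blood cells (-0.12), interferon response (0.11), immediate-early genes (0.04), heat shock and unfolded protein (-0.02), apoptosis and p53 targets (0.05) and Y-linked genes (0.15). The stress genes Nr4a1 and Hspa1a differed by -0.75 and 0.37, and the p53 target Bbc3 by -0.36. None of them passed. Without knockout-labelled replicate 2 the interferon median was 0.01, and within the 1 slide the interferon median was 0.03 and the Y-linked median 0.01. Of all 30 lists, the median changed sign for 4 under median centring and for 5 under quantile normalization, all with medians within 0.05 of 0. It changed sign for 5 after normexp correction, among them the macrophage and red blood cell lists, and for 7 without knockout-labelled replicate 2, among them the fibroblast list.

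**Figure D4:**
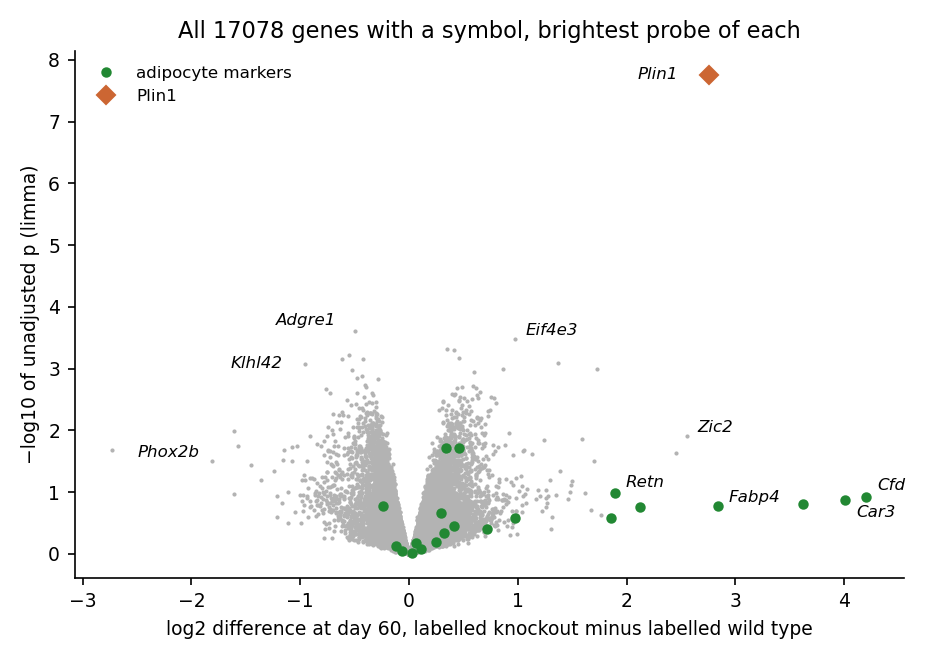
Log2 difference at day 60 (labelled knockout minus labelled wild type, x axis) against −log10 of the unadjusted limma p (y axis) for the brightest probe of each of 17078 genes, with adipocyte markers in green and Plin1 as a diamond. Plin1 stands alone in p, at a difference of 2.75, and the adipocyte markers with the largest differences have small −log10 values.

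Over the transcriptome the labels differed little at day 60. The median absolute difference per gene was 0.12, the middle 90% of genes lay between -0.33 and 0.42, and 95% lay within 0.5. The median SE was 0.15. An unadjusted limma p below 0.05 was reached by 2120 probes (5.95%), against 1782 that a uniform distribution of p would give. That count depended on the fit. It was 4082 from the day 60 arrays alone, 4541 from days 40 and 60, and 3748 under array weights. A random block for slide, fitted with a correlation of -0.23 between arrays of 1 slide, gave 5606. Some other settings gave fewer than 2120, among them 604 once knockout-labelled replicate 2 was dropped and 170 after normexp. Why these counts differ was not tested. Per gene, in the fit that gave 2120, 530 lay on the higher side with an unadjusted p below 0.05 (3.1%). On the lower side 584 did (3.42%). At least 2-fold differences were found in 48 genes on the higher side (0.281%) and 20 on the lower side (0.117%). Of the 48, the highest knockout-labelled array was replicate 2 for 26, replicate 3 for 13 and replicate 1 for 9. Without replicate 2, 42 genes were at least 2-fold higher and 23 lower. With all 6 arrays, 21 genes were also without overlap on the higher side (0.123%) and 10 on the lower side (0.0586%).

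The 10 genes with the smallest p on the higher side besides Plin1 were Eif4e3, Map3k14, Map3k15, Magea1, Plekhg6, Dmkn, Ubxn8, Apool, Ccnb3 and Col9a2. Their differences lay between 0.35 and 0.98, each was without overlap, and each had a limma adjusted p of 0.807. Eif4e3, a relative of the cap-binding protein eIF4E, read -0.94, -0.52 and -0.27 under the wild-type label and 0.13, 0.67 and 0.40 under the knockout label, a difference of 0.98 or 1.97-fold. A second Eif4e3 probe differed by 0.38 (SE 0.25). Map3k14, the NF-kappa-B-inducing kinase, read -1.11 to -1.02 against -0.76 to -0.65. Ccnb3, a cyclin of early meiosis, read -2.07 to -1.72 against -1.62 to -1.02, and Magea1, of a testis-restricted antigen family, read -3.14 to -2.96 against -2.64 to -2.53. For Dmkn, an epidermal secreted protein, a second probe differed by -0.11, in the other direction from the 0.59 of its brighter probe.

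The 10 genes with the smallest p on the lower side were Adgre1, Serhl, Dab2ip, Mef2c, Klhl42, Fpgs, Rufy1, Nrp2, Mtrr and Setd4. Their differences lay between -0.95 and -0.29, without overlap, and each had a limma adjusted p of 0.807. Mef2c, a transcription factor of muscle and other lineages, read -0.84 to -0.75 under the wild-type label and -1.65 to -1.28 under the knockout label. Nrp2, a co-receptor for semaphorins and VEGF, read -1.14 to -0.98 against -1.67 to -1.47. Fpgs, which traps folate in cells by adding glutamates, read 1.44 to 1.60 against 0.68 to 1.16. Klhl42, an adaptor of a ubiquitin ligase, differed by -0.95 by its brightest probe and by -0.09 and -0.05 by its other probes, and Mtrr, the methionine synthase reductase, by -0.29, 0.09 and 0.69 by its 3 probes.

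**Figure D5:**
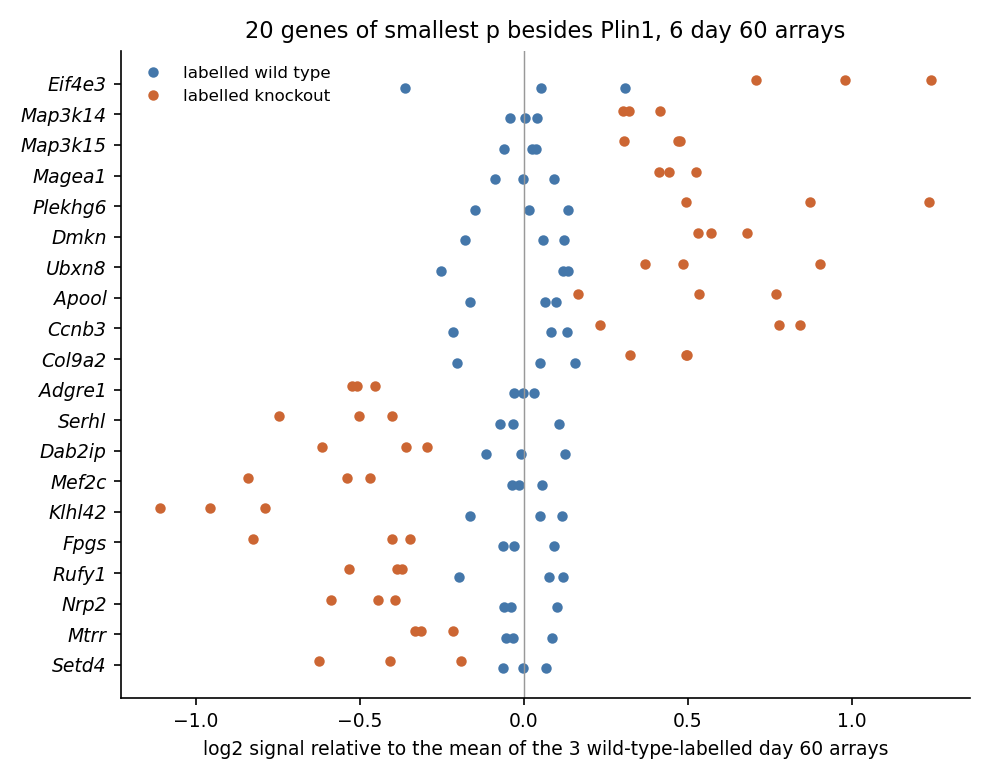
Levels of the 20 genes with the smallest p besides Plin1 in the 6 day 60 arrays, each relative to the mean of the 3 wild-type-labelled arrays (log2 units, x axis). Labels do not overlap for any of the 20, by the choice of small p, and Klhl42 has the largest difference on the lower side, -0.95.

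The day 21 and day 40 arrays entered the choice of these genes through the pooled spread and the choice of probe. Their own difference between labels did not enter it. At day 21, 3 of the 10 higher genes had a difference above 0, against 43.9% of all genes. Of the 10 lower genes, 5 had one below 0 at day 21, against 56.1%. At day 40, 5 of the 10 higher genes had a difference above 0, against 58.6% of all genes, and 0 of the 10 lower genes had one below 0, against 41.4%. Adgre1, for example, differed by 0.04 at day 40.

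Among genes well above background on all 6 arrays and without overlap, the largest differences on the higher side after Plin1 were those of Retn (1.89), Eif4e3 (0.98), Inmt (0.94), Prrxl1 (0.89), Myl3 (0.88), Pcp4 (0.88), A530058N18Rik (0.87) and Tm4sf19 (0.87). Their SEs ran from 0.21 (Eif4e3) to 1.09 (Retn), with 0.83 for A530058N18Rik, and none of them passed. A second Myl3 probe differed by 0.24 (SE 0.25). Retn, the fat cell hormone resistin, read -5.80, -5.98 and -5.82 under the wild-type label and -5.28, -1.05 and -5.60 under the knockout label. Inmt, a methyltransferase of indoles, read -5.17 to -5.03, and then -4.81, -2.62 and -4.99. Pcp4, a small calmodulin-binding protein, read -5.16 to -5.00, and then -4.65, -3.22 and -4.71. Replicate 2 again gave most of the difference in these 3 genes, whereas Tm4sf19 read -4.62 to -4.38 in all 3 knockout-labelled arrays.

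On the lower side the largest included those of Serpinb9g (-1.16), Serpini2 (-1.15), Tafa4 (-1.11), Sftpa1 (-1.07), Il20ra (-0.98), Atp8b5 (-0.96) and Klhl42 (-0.95). Their SEs ran from 0.23 (Klhl42) to 0.63 (Tafa4), and none of them passed. Serpinb9g, a serine protease inhibitor, read -4.45 to -4.27 under the wild-type label and -5.43, -6.20 and -4.96 under the knockout label. Tafa4, a secreted neuropeptide-like protein, read -4.28 to -4.21, and then -5.39, -5.82 and -4.86. Il20ra, a cytokine receptor chain, read -1.23 to -0.97, and then -1.94, -2.69 and -1.64. For these 3 genes the lowest array was knockout-labelled replicate 2. Tafa4 differed by 0.08 at day 40.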

How the data were processed

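Per the file headers, spots were quantified with Feature Extraction 10.7.3.1 (the submitters' processing notes name 9.1). The deposited processed signal is a linear fluorescence intensity, background-subtracted and detrended by the authors' software, unscaled between arrays. The series value table the authors deposited repeats these intensity values exactly. From these, control and outlier spots were dropped, spots of a probe averaged as log2, and each array's 75th percentile of non-control spots subtracted. Tested were probes that every array of 1 or more of the 6 groups measured well above background (35643 of 41174), with limma 3.58.1 (R 4.3.3), 6 group means over 18 arrays, Benjamini-Hochberg adjustment and a threshold of 0.05. The code was tested on simulated data. Accessions matched RefSeq symbols for 25062 tested probes, giving 17078 genes by the brightest probe. The number of arrays limits the precision.

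Named were Plin1, its family and neighbours, genes of smallest p and of largest difference without overlap, and members of 30 lists (565 of 617 genes measured): for the adipocyte, lipolysis, steroidogenesis and Leydig lists any member, for the others up to 4 of smallest p. Named outside this rule, with values known, were Ldhc, Pgk2, Ptprc, Car9 and Zfp287. Members and lists were chosen with earlier results of these data known. Alternatives covered background correction, scaling, filters, arrays in the fit, slide and replicate blocks, array weights and left-out arrays. A gene that the rule names is not reported here.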

Additional observations from a re-analysis of the deposited data

Results flagged for a closer look

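The difference between labels departed between ages for 5 probes by limma's test of day 60 against day 21, out of 35643 tested. For 1700008P02Rik the day 60 difference minus that at day 21 was -2.58 (SE 0.35, limma adjusted p = 0.0269), for 4930412O13Rik -2.37 (SE 0.27, limma adjusted p = 0.0155) and for Ttc7 -1.97 (SE 0.28, limma adjusted p = 0.0461). The other 2 probes carry no symbol and gave -3.50 and -2.56. Ttc7 averaged 1.18 under the knockout label at day 60, close to the 1.1 under the wild-type label, and the corresponding day 21 averages were -3.53 and -5.59. All 5 probes were well above background on every day 60 array, and the unnamed probes were so on only some day 21 arrays.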

How the results depend on the processing

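The Plin1 difference stayed above 0 under every alternative run and lost its call under some. Its limma adjusted p was 0.952 after normexp background correction (difference 1.67), 0.245 with day 60 arrays alone (2.75), 0.0665 with slide as a fixed block (2.92) and 0.752 with day 60 arrays alone without knockout-labelled replicate 2 (2.80, chosen after seeing the data). Probes called numbered 0 in the first, second and last of these fits, with 170, 4082 and 2312 at an unadjusted limma p below 0.05. Under the fixed slide block 1 probe passed, without a symbol (1.99, limma adjusted p = 0.0145). Plin1 ranked 4 by p under that block, and 2 in the fits of day 60 arrays alone with and without knockout-labelled replicate 2. Replicate numbers did not pair the arrays: deviations of same-numbered day 60 arrays correlated at -0.14, -0.08 and 0.03. With a replicate block Plin1 kept its difference of 2.75 with a limma adjusted p of 0.153, and 0 probes passed (2024 at an unadjusted p below 0.05).

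Leaving out 1 day 60 array at a time, Plin1 differed by 2.60 to 3.05 and passed each time, with 1 to 2 probes called. The additional probe was a dimmer Zfp287 probe without wild-type-labelled replicate 3 (-1.71), an unnamed probe without knockout-labelled replicate 1 (-3.38) and Car9, a carbonic anhydrase, without knockout-labelled replicate 3 (-2.53). Car9 read -1.37 to -1.27 under the wild-type label and -3.83, -3.88 and -1.09 under the knockout label. Slide as a random block, array weights, median centring and quantile normalization kept Plin1 called. So did days 40 and 60 alone, both filters and background subtraction with an offset of 50 (chosen after seeing the data). Differences in these fits were 2.51 to 2.83. The random block was fitted with a correlation of -0.23 between arrays of 1 slide. Of 600 list medians, 45 moved by more than the spread between arrays, 11 of them under normexp, which was run on the median signal. Normexp shifted the median of all probes to 0.18, and after it the 1st percentile ran from 56.7 to 1725 between arrays (8.50 to 60.5 before); whether this carries its other results was not tested.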
